A study of Sorghum bicolor with 16 samples.

Results

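The comparison described here set roots of the sweet sorghum (Sorghum bicolor) strain Roma against roots of the strain M-81E, both grown without added salt. It rested on 8 of the 16 samples of the study: for Roma control and then for M-81E control, 2 libraries of RNA pulled down with an antibody against N6-methyladenosine (m6A) and 2 libraries of the matching input RNA. Roma is labelled as sensitive to salt and M-81E as tolerant of it. Roots were taken from seedlings of 1 leaf stage, and their poly(A) RNA was isolated and fragmented. The other 8 samples were the same strains under salt, which the labels describe with neither dose nor duration. Both groups are single strains, so a difference between them is a difference between 2 genotypes, and nothing in the labels says whether the 2 replicates of a group came from separate cultures. The p-values therefore measure only the spread between these libraries, which may be technical.

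Each strain had 2 columns of gene expression in control conditions, in FPKM (sequenced fragments scaled to the length of the transcript and to the mapped fragments of the library), and 1 list of m6A peaks. The labels tie the FPKM columns to the pulled-down samples, while the peak lists use the same names for the input partner, so it is unknown here whether pulled-down or input RNA gave the FPKM values. A gene was tested when its mean over all 8 expression columns was at least 1 FPKM, which held for 16280 of 29033 genes. Differences are given on the log2(FPKM + 1) scale, Roma minus M-81E, after each library was shifted to a common median. This scale understates the change of genes with low values.

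m6A is a methyl mark that a methyltransferase complex writes on messenger RNA in the nucleus, that demethylases can remove, and that reader proteins bind. In plant mRNA it lies mostly in the 3′ UTR and near the stop codon, and it bears on the stability, processing and translation of the transcript. Roots of salt-tolerant and salt-sensitive strains are commonly compared before any stress is given, because growth, cell walls, transporters and stress genes can differ between strains at rest.

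The 2 Roma control libraries were more alike than the 2 M-81E control libraries, with a replicate SD of 0.526 against 0.772 on the log2 scale and a Spearman rho across genes of 0.912 against 0.807. The number of reads behind the FPKM values is unknown. Roma control had 15859 and 15901 genes at 1 FPKM or more, against 14828 and 14477 in M-81E control, and the median tested gene stood at 7.47 and 7.45 FPKM against 5.81 and 5.75 FPKM. Before the shift to a common median the typical gene was thus 0.30 log2 higher in Roma, and after it the median difference was -0.02. Changes below are relative to that shift of the whole transcriptome. The tissue label was checked on 3 marker lists taken from the Gene Ontology (GO) annotation. Of 102 photosystem genes, a list that marks green tissue, 24 passed the filter on low values and 10 were at 0 in all 4 control libraries, and the list summed to 195 and 204 FPKM in Roma against 307 and 315 FPKM in M-81E, with 0 members higher and 4 lower in Roma. The 81 root hair genes summed to 3238 and 3269 FPKM against 2538 and 1989 FPKM, with 3 of 47 tested members higher and 5 lower. The 206 genes of the Casparian strip and root development summed to 4923 and 5107 FPKM against 4634 and 4067 FPKM, with 6 of 149 higher and 13 lower. In list order, the shares higher in Roma were 0%, 6.38% and 4.03% of tested members, against 3.64% of all tested genes. The shares lower in Roma were 16.7%, 10.6% and 8.72%, against 6.28%. The part of these markers in the results was not tested.

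Roots of the 2 strains differed in 1616 genes, which is 9.93% of those tested (limma, Benjamini-Hochberg adjusted p under 0.05). Roma was higher in 593 of them, or 3.64% of the tested genes, and lower in 1023, or 6.28%. At an unadjusted p under 0.05 there were 4378 genes. The genes higher in Roma had a median difference of 1.5 log2, and 170 of them differed by at least 2. The genes lower in Roma had a median of -1.53, and 286 differed by at least 2. Without the shift to a common median the split was 1359 higher and 612 lower, because the typical gene then counts as higher in Roma. Those uncentred counts are 8.35% and 3.76% of the tested genes. All 593 higher genes and 612 of the 1023 lower genes passed in the same direction on that scale too. The 2 strains did not overlap on the centred scale in any of the 1616 genes, while over all tested genes there was no overlap with Roma above in 26.3% and with Roma below in 28.9%. In RNA from whole roots, fewer cells of a type and less RNA per cell cannot be told apart.

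The count depended on single libraries. Without 1 of the Roma control libraries it was 248 or 276 genes, without M-81E control 1 it was 4262, and without M-81E control 2 it was 2484. Without a Roma salt library, which enters only through the shared estimate of the spread, it was 844 or 842. No gene of the 1616 was called in the opposite direction in any of these fits, and 211 and 233 of the calls without Roma control 1 and without Roma control 2 were among the 1616. The calls of single genes depended on them too. Of 141 genes named by rule that passed, 45 passed without Roma control 1 and 52 without Roma control 2, against 132 and 119 without M-81E control 1 and M-81E control 2. In a fit of the 2 control groups alone 42 of the 141 passed.

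The genes described next are the 12 largest differences each way among genes with an annotated function, a mean of at least 5 FPKM and no control library at 0. The rule also asked for no overlap between the 2 strains. Larger differences were fitted for genes outside these limits, most of them listed at 0 in a strain. The largest excess among the 12 higher genes was in a receptor-like kinase, a class of membrane protein that passes outside signals into the cell. SORBI_3005G069900, annotated as a serine/threonine kinase of a cell surface receptor pathway, stood at 44.2 and 45.8 FPKM in Roma against 0.425 and 0.250 FPKM in M-81E. That is a difference of 4.79 ± 0.19 (SE, n = 2 libraries each, adjusted p by limma 0.000373). Here and below, the SE rests on limma's estimate of the spread shared by all 8 libraries, salt included, and not on the control libraries alone. SORBI_3009G071300, an acid phosphatase of the kind that frees phosphate from organic compounds, had 80.7 and 87.6 FPKM against 4.2 and 1.21 FPKM. That is a difference of 4.33 ± 0.60 (limma adjusted p = 0.0118). The absence of overlap in these genes follows from the rule.

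Gibberellin genes were among the 12 with the largest excess in Roma. SORBI_3009G134600, described as a GID1-like receptor of this growth hormone, had 119 and 129 FPKM in Roma against 6.19 and 4.00 FPKM in M-81E (4.06 ± 0.47, limma adjusted p = 0.00746). SORBI_3006G211400 carries ent-kaurene synthase activity, an early step of gibberellin synthesis. It had 30 and 38.0 FPKM in Roma against 1.21 and 1.42 FPKM in M-81E (3.59 ± 0.25, limma adjusted p = 0.00197). Of the 66 tested genes annotated to gibberellin, 3 (4.55%, against 3.64% of all tested genes) were higher in Roma and 6 (9.09%, against 6.28%) lower. Without M-81E control 1 these were 10 and 8, without M-81E control 2 they were 5 and 10, and without a Roma control library 2 higher and 2 or 1 lower. The third higher one, SORBI_3009G258300, annotated to the gibberellin response, had 18.2 and 16.0 FPKM against 1.41 and 0.466 FPKM.

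An enzyme of detoxification, a defense protein and a hormone carrier were also among the 12. The glutathione transferase SORBI_3004G044900, an enzyme class that attaches glutathione to toxic compounds, had 57.4 and 56.4 FPKM in Roma against 1.59 and 2.50 FPKM in M-81E (3.95 ± 0.21, limma adjusted p = 0.00103). SORBI_3009G002400, annotated as a polygalacturonase inhibitor, a protein that blocks pectin-digesting enzymes of pathogens, had 71.7 and 51.9 FPKM against 6.41 and 1.26 FPKM. SORBI_3003G327500, an auxin efflux carrier, which moves this hormone out of cells, had 46.4 and 46.9 FPKM against 4.57 and 1.66 FPKM. In the last pair of genes the M-81E libraries lay further apart by ratio than the Roma libraries.

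The remaining members were a nucleoside diphosphatase (SORBI_3008G022100, 28.6 and 23.2 FPKM in Roma against 0.529 and 0.341 FPKM in M-81E), an arginine-tRNA ligase (SORBI_3001G367500), a hydrolase (SORBI_3003G417350), an aspartic endopeptidase (SORBI_3002G243000) and a ribosomal protein (SORBI_3010G251600). The last had 136 and 70.4 FPKM in Roma against 1.24 and 12.1 FPKM in M-81E, so that both pairs of libraries were far apart. Across the 12 the differences ran from 3.31 to 4.79 log2 and the adjusted p by limma from 0.000373 to 0.0488. Without Roma control 1, 6 of the 12 passed the threshold, and without Roma control 2, 7 passed. SORBI_3002G243000 and SORBI_3010G251600 passed in 2 of the 8 fits that leave out 1 library.

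Among the 12 lower genes, with no control library at 0, the largest deficit was in a gene of cell wall architecture. SORBI_3001G086000, annotated to cellulose microfibril organization and to multidimensional cell growth, stood at 0.293 and 0.182 FPKM in Roma against 106 and 109 FPKM in M-81E, a difference of -6.78 ± 0.23 (limma adjusted p = 0.000373). SORBI_3007G047400, a transcription factor with annotations to several hormones, had 0.349 and 0.353 FPKM in Roma against 42.0 and 62.5 FPKM in M-81E (-5.59 ± 0.24, limma adjusted p = 0.000506). SORBI_3005G128800, annotated to microtubule binding and the regulation of cell growth, had 0.629 and 0.621 FPKM against 59.1 and 41.0 FPKM. In all 3 genes the transcript was under 1 FPKM in both Roma libraries and at 41.0 FPKM or more in both M-81E libraries.

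Phenylpropanoid genes, which feed lignin and related wall polymers, gave 2 of the 12 largest deficits. SORBI_3010G072100, a cinnamyl-alcohol dehydrogenase that makes lignin precursors, had 0.168 and 0.210 FPKM in Roma against 19.6 and 32 FPKM in M-81E (-4.78 ± 0.28, limma adjusted p = 0.00123). SORBI_3002G100832 is annotated to guiding stereospecific synthesis, the activity of dirigent proteins that couple phenylpropanoid units. It had 0.527 and 0.521 FPKM against 52.7 and 53.0 FPKM. SORBI_3004G013200, a glutamate receptor channel of the calcium-conducting kind, had 0.181 and 0.308 FPKM against 24.6 and 43.5 FPKM.

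The oxalate decarboxylase SORBI_3004G148100, an enzyme of oxalate breakdown, had 1.12 and 0.929 FPKM in Roma against 167 and 90.6 FPKM in M-81E (-6.26 ± 0.33, limma adjusted p = 0.00103). SORBI_3001G390300, annotated to protein binding only, had 6.02 and 5.96 FPKM against 56.0 and 415 FPKM, so its M-81E libraries lay far apart. A glycosyl hydrolase (SORBI_3002G117900) and a transferase (SORBI_3009G040175) were lower by 4.88 and 4.68 log2 on the fitted scale, and 2 kinases of the list are described below. Across the 12 genes lower in Roma, the adjusted p by limma reached 0.0228. Without Roma control 1 or without Roma control 2, 10 of them passed the threshold.

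**Figure D1:**
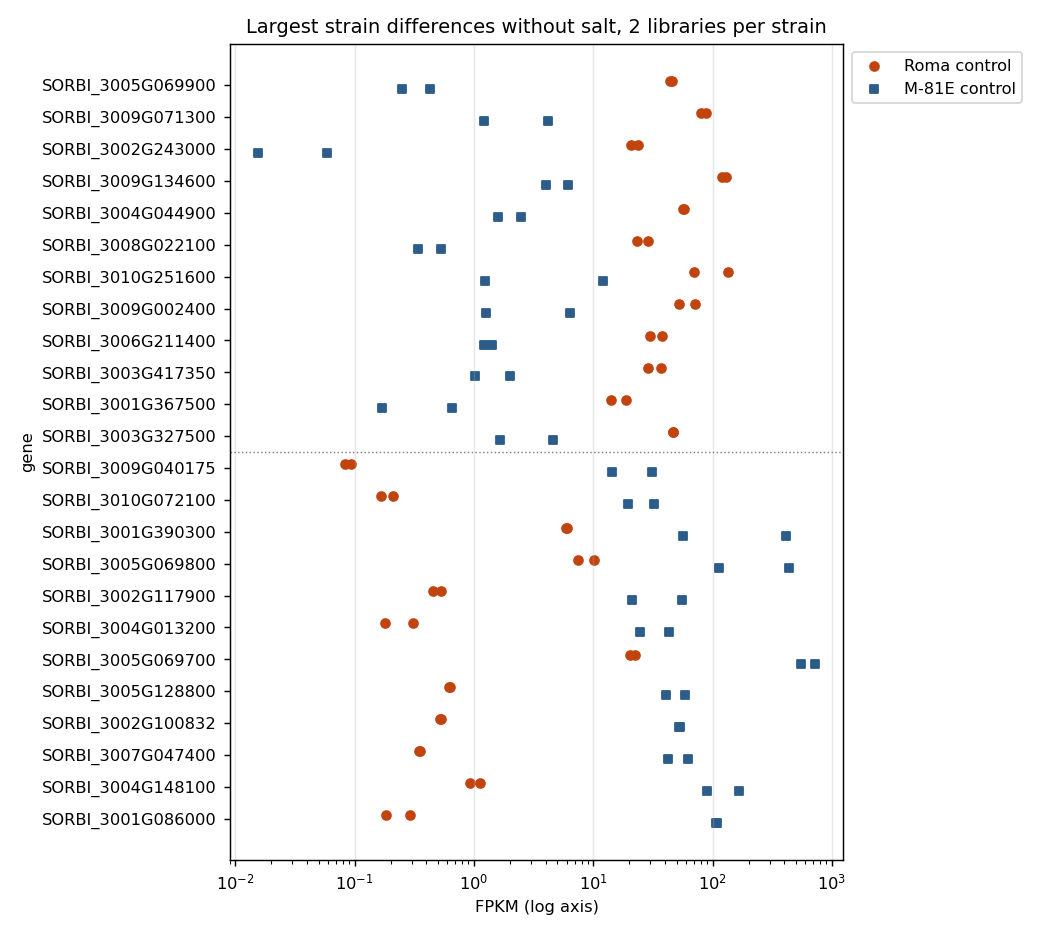
FPKM of the 12 genes with the largest excess and the 12 with the largest deficit in Roma, among genes with an annotated function and values above 0 in all control libraries, on a log axis. Each circle is 1 Roma control library and each square 1 M-81E control library. In every row the 2 strains are apart by the rule that named the genes. The squares of SORBI_3010G251600 and SORBI_3001G390300 are the most scattered.

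One stretch of chromosome 5 held neighbours that differed in opposite directions. Among the tested genes in chromosome order, 7 in a row passed the threshold, 6 of them annotated as serine/threonine kinases of cell surface receptor signalling. SORBI_3005G069700 had 22.4 and 20.2 FPKM in Roma against 551 and 728 FPKM in M-81E (-5.15 ± 0.20, limma adjusted p = 0.000373), and next to it SORBI_3005G069800 had 10.2 and 7.38 FPKM against 437 and 114 FPKM (-4.85 ± 0.61, limma adjusted p = 0.00894). The following 2 genes were high in Roma instead. SORBI_3005G069900 is given above, and SORBI_3005G070000 had 62.2 and 62.3 FPKM against 2.65 and 7.57 FPKM (3.18 ± 0.49, limma adjusted p = 0.0162).

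Further along, SORBI_3005G070200 was again lower in Roma, at 99.1 and 96.3 FPKM against 572 and 661 FPKM (-2.96 ± 0.17, limma adjusted p = 0.0012). SORBI_3005G070400 stood at 4.17 and 3.93 FPKM against 6.31 and 5.54 FPKM, and its difference of -0.77 (limma adjusted p = 0.0461) came to -0.45 without the shift to a common median, with an adjusted p of 0.145. The last of the 7, SORBI_3005G071100, carries a DNA polymerase processivity function and had 3.37 and 3.66 FPKM against 0.0113 FPKM and a value listed at 0. A further kinase on the other side of the run, SORBI_3005G069500, had 38.4 and 36.6 FPKM against 31.8 and 13.5 FPKM and did not pass (limma adjusted p = 0.442).

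Where these kinases held an m6A peak in 1 list only, it was the list of the strain with the higher FPKM. The deposited positions carry no genome build. SORBI_3005G069700 had a peak at chromosome 5, positions 8083872 to 8084110, and SORBI_3005G069800 at 8090307 to 8090514, both in the M-81E control list and not in the Roma control list. SORBI_3005G070000 had one at 8123772 to 8124011 in the Roma list and not in the M-81E list. SORBI_3005G070200, the gene expressed well in both strains, had a 3′ UTR peak in both lists, at 8212112 to 8212440 in Roma and 8212112 to 8212410 in M-81E. Near-identical copies can share fragments, so the split of FPKM between these neighbours is uncertain.

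**Figure D2:**
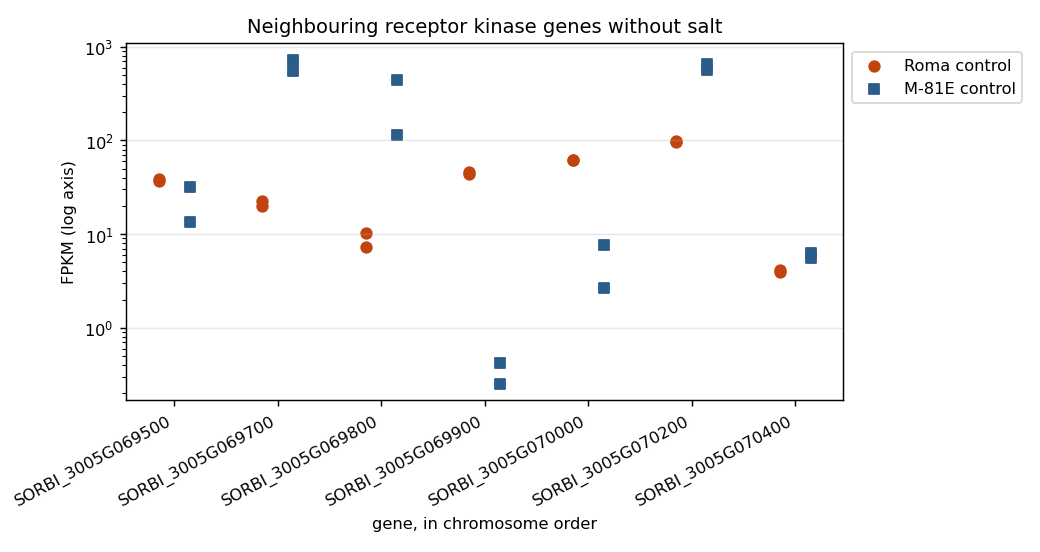
FPKM on a log axis of the neighbouring receptor kinase genes of chromosome 5 in their order, Roma control (circles) left of M-81E control (squares), 1 point per library. SORBI_3005G069700 and SORBI_3005G069800 are lower in Roma, SORBI_3005G069900 and SORBI_3005G070000 higher, and SORBI_3005G070200 and SORBI_3005G070400 lower. SORBI_3005G069500 is the one that did not pass the threshold.

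Such runs were short in most of the genome. Of the 1616 genes that differed, 26.1% had a tested neighbour that differed too, against 17.9% of the other tested genes with a position in the order. There was 1 other run as long as 5 genes, also on chromosome 5, and 4 runs of 4. Chromosome 5 had the highest share of differing genes, at 15.6% of 822 (45 higher and 83 lower in Roma), followed by chromosome 8 at 12.2% of 778. The other chromosomes held between 8.89% and 10.2%.

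Of 46 genes annotated to phosphate starvation or phosphate transport 38 were tested, and 8 (21.1%, against 3.64% of all tested genes) were higher in Roma and 1 (2.63%, against 6.28%) lower. The list median was 0.27, and 0.59 without the shift, against -0.02 and 0.30 over all tested genes. SORBI_3001G054000, annotated to phosphate ion transport and to traffic from the endoplasmic reticulum, had 8.23 and 7.46 FPKM in Roma against 0.0371 and 0.158 FPKM in M-81E (2.69 ± 0.20, limma adjusted p = 0.0021). The other 3 members with the largest differences are annotated to the synthesis of glycolipids or sulfolipids, which can replace phospholipids in membranes when phosphate is short. SORBI_3007G211900 had 10.6 and 9.66 FPKM against 1.48 and 0.561 FPKM.

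SORBI_3009G123300 had 19.3 and 16.6 FPKM against 2.07 and 3.15 FPKM. SORBI_3003G076900 had 29.9 and 32.7 FPKM against 5.59 and 6.52 FPKM (1.88 ± 0.19, limma adjusted p = 0.00496). The groups did not overlap in any of the 4 genes, as held on the centred scale for all 593 genes higher in Roma. Without M-81E control 1 the list had 9 higher and 4 lower, without M-81E control 2 it had 7 and 1, and without either Roma control library 1 and 0.

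Of 279 tested genes of protein folding and the heat response, 28 (10.04%) were lower in Roma and 6 (2.15%) higher, against 6.28% lower and 3.64% higher over all tested genes, with a median of -0.14 that turned to 0.18 without the shift, where the counts were 22 lower and 17 higher. The 60 members annotated to the endoplasmic reticulum, where secreted proteins are folded, had 10 lower (16.7%) and 0 higher. All 10 were past the threshold and lower under salt as well, against 38.5% of all 1023 genes lower in Roma. The estimate of each gene's spread was shared with the salt libraries, so this is not an independent repeat. SORBI_3007G197200, an FK506-binding prolyl isomerase of the endoplasmic reticulum membrane, had 41.3 and 32.8 FPKM in Roma against 143 and 126 FPKM in M-81E (-2.16 ± 0.22, limma adjusted p = 0.00492). SORBI_3002G222200, a protein disulfide isomerase, had 21.8 and 18.0 FPKM against 51.3 and 55.8 FPKM.

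SORBI_3009G051700, annotated to the lumen of the endoplasmic reticulum and to unfolded protein binding, had 25.7 and 20.8 FPKM against 73.3 and 68.7 FPKM. Outside that compartment, SORBI_3001G129000, annotated to ATP binding, protein folding and the plastid, had 21.1 and 20.6 FPKM against 81.3 and 80.9 FPKM (-2.23 ± 0.19, limma adjusted p = 0.00334). In these 4 genes every Roma library lay below every M-81E library, as held on the centred scale for all 1023 genes lower in Roma. SORBI_3008G136000 went the other way, at 508 and 462 FPKM against 108 and 28.7 FPKM, and passed in 2 of the 8 fits that leave out 1 library. Without M-81E control 1 the list had 23 higher and 54 lower, without M-81E control 2 it had 16 and 38, and without Roma control 1 or Roma control 2 it had 0 higher and 10 or 9 lower.

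Lignin genes differed in both directions, also within one class of enzyme. Of 74 tested members 8 were higher (10.8%, against 3.64% of all tested genes) and 9 lower (12.2%, against 6.28%) in Roma. Among the cinnamyl-alcohol dehydrogenases, 3 neighbours on chromosome 10 were lower. Beside SORBI_3010G072100 above, SORBI_3010G072000 had 9.24 and 10.4 FPKM in Roma against 37.7 and 59.0 FPKM in M-81E, and SORBI_3010G071900 had 6.16 and 8.17 FPKM against 23.9 and 42.2 FPKM. 2 other genes of the same class were higher. SORBI_3004G071000 had 10.7 and 11.1 FPKM against 2.34 and 3.15 FPKM, and SORBI_3002G195700 was higher at 11 and 10.7 FPKM against 0.901 and 0.843 FPKM (2.34 ± 0.21, limma adjusted p = 0.00368).

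Copper-binding oxidases of the kind that join lignin precursors in the wall were among the higher members. SORBI_3003G352700 had 72.9 and 49.8 FPKM against 11.9 and 7.04 FPKM (2.27 ± 0.31, limma adjusted p = 0.0115). Its neighbours SORBI_3003G352800 and SORBI_3003G353200 and the more distant SORBI_3001G422300 rose as well, by 1.46, 2.21 and 1.80 log2. SORBI_3003G354900, a histone-binding protein annotated to the regulation of lignin synthesis, was lower, at 1.09 and 1.38 FPKM against 24.4 and 26.1 FPKM (-3.88 ± 0.24, limma adjusted p = 0.00149). Without M-81E control 1 the list had 21 higher and 11 lower, without M-81E control 2 it had 7 and 14, and without a Roma control library 1 or 2 higher and 3 lower.

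Of 90 tested members of glycolysis and the citric acid cycle, 8 (8.89%) were higher in Roma and 3 (3.33%) lower, against 3.64% and 6.28% of all tested genes, with a median of 0.17, and 0.49 without the shift. The 3 neighbouring genes of glyceraldehyde-3-phosphate dehydrogenase, a central enzyme of glycolysis, differed by 1.52, 1.20 and 1.14 log2. SORBI_3010G262433 had 727 and 677 FPKM in Roma against 165 and 231 FPKM in M-81E (limma adjusted p = 0.0147), and SORBI_3010G262466 and SORBI_3010G262500, possible copies of it, were higher as well (limma adjusted p = 0.0269 and 0.0209). The enolase SORBI_3010G027000 had 983 and 905 FPKM against 328 and 397 FPKM (1.06 ± 0.20, limma adjusted p = 0.0262). The lower genes were a phosphoglycerate kinase, a citrate synthase and SORBI_3006G052800, an oxoglutarate dehydrogenase at 24.5 and 26.5 FPKM against 46.6 and 46.0 FPKM, and on the uncentred scale 0 members of the list were lower. Fitted without M-81E control 1, the list had 11 higher and 7 lower, without M-81E control 2 it had 14 and 2, and without either Roma control library 0 members passed.

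Fermentation and oxygen genes were mixed. In the hypoxia list of 43 tested genes 4 (9.30%, against 3.64% of all tested genes) were higher and 6 (14.0%, against 6.28%) lower in Roma. The alcohol dehydrogenase SORBI_3001G097600, which regenerates NAD when oxygen is short, had 297 and 433 FPKM in Roma against 96.5 and 62.1 FPKM in M-81E (1.88 ± 0.31, limma adjusted p = 0.0193). SORBI_3008G177800 had 213 and 190 FPKM against 39.8 and 19.5 FPKM (2.49 ± 0.43, limma adjusted p = 0.0214). The transcription factor SORBI_3009G142200, annotated to the hypoxia response, was lower, at 2.44 and 4.63 FPKM against 25.4 and 23.8 FPKM (-2.86 ± 0.51, limma adjusted p = 0.0239). With M-81E control 1 left out, the counts were 11 higher and 7 lower, without M-81E control 2 they were 5 and 5, and without either Roma control library 0 and 1.

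Sugar handling also split. Of 48 tested sugar transport genes 6 (12.5%, against 3.64% of all tested genes) were higher and 5 (10.4%, against 6.28%) lower in Roma. The sugar transporter SORBI_3005G123500 had 138 and 77.4 FPKM in Roma against 18.2 and 11.8 FPKM in M-81E (2.41 ± 0.40, limma adjusted p = 0.0188), while SORBI_3003G213000 had 0.747 and 0.769 FPKM against 8.32 and 3.77 FPKM. The list of sucrose, starch, trehalose and proline genes had 12 higher (7.79%) and 12 lower (7.79%) of 154. Its starch synthase SORBI_3010G047700 was higher, at 17.5 and 14.3 FPKM against 1.82 and 2.41 FPKM (2.12 ± 0.22, limma adjusted p = 0.00544). SORBI_3003G153800, a sucrose-cleaving alpha-glucosidase, was lower, at 11.5 and 8.53 FPKM against 43.0 and 39.8 FPKM (-2.28 ± 0.21, limma adjusted p = 0.00402), and so was the trehalose phosphatase SORBI_3001G303900, at 46.0 and 46.3 FPKM against 104 and 225 FPKM. When M-81E control 1 or 2 was left out, the transport list had 9 higher and 8 or 6 lower, and the sucrose list 21 higher and 27 lower or 16 and 21. Without either Roma control library each had at most 1 member higher and 1 lower.

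An ADP-binding annotation marks the large class of intracellular immune receptors. Genes with this annotation differed in 21.62% of tested members, against 9.93% of all tested genes. There were 74 tested of 169 in the table. Of these, 11 (14.9%, against 3.64% of all tested genes) were higher and 5 (6.76%, against 6.28%) lower in Roma. The share lower in Roma was thus near that of all tested genes. SORBI_3005G019400 had 10.6 and 10.2 FPKM in Roma against 0.184 and 0.454 FPKM in M-81E (2.80 ± 0.22, limma adjusted p = 0.00269). SORBI_3005G154300 had 0.436 and 0.369 FPKM against 9.70 and 6.0 FPKM (-2.95 ± 0.26, limma adjusted p = 0.00368). The differences of 8 of the 11 higher and 3 of the 5 lower genes were also past the threshold under salt in the same direction. Over all genes that differed without salt, this held for 45.7% of the 593 higher and 38.5% of the 1023 lower genes. The class holds many near-identical members, so the values of single genes are uncertain. Fitted without M-81E control 1, the counts were 14 higher and 19 lower, without M-81E control 2 they were 11 and 6, and without either Roma control library 2 and 2.

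Glutathione transferases split as well, with 7 higher (8.86%) and 6 lower (7.59%) of 79 tested in Roma. Over all tested genes these shares were 3.64% and 6.28%. Beside SORBI_3004G044900, the higher members included SORBI_3001G514300 at 24.9 and 30.4 FPKM against 4.52 and 1.19 FPKM. The largest deficit was in SORBI_3002G035700, at 3.33 and 1.63 FPKM against 27.5 and 23.2 FPKM (-3.28 ± 0.36, limma adjusted p = 0.00615). The list median of -0.23 turned to 0.09 without the shift. When M-81E control 1 or 2 was left out, the counts were 10 higher and 8 lower or 9 and 12, and without Roma control 1 or Roma control 2 they were 2 higher and 1 or 2 lower.

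Regulators were read against the share of all tested genes, 3.64% higher and 6.28% lower. Among 740 tested protein kinases, enzymes that attach phosphate to other proteins, 33 (4.46%) were higher in Roma and 78 (10.54%) lower. Without the shift these were 53 and 50, and the list median of -0.20 became 0.12. Of 688 transcription factors, 13 (1.89%) were higher and 42 (6.10%) lower, and 47 and 28 without the shift, so that the direction of the split depended on the scale. Of 405 ubiquitin ligases, which mark proteins for breakdown, 10 (2.47%) were higher and 27 (6.67%) lower, and 19 and 10 without the shift. The shares lower in Roma of the last 2 lists were near that of all tested genes. When M-81E control 1 was left out, these lists had 85 higher and 169 lower kinases, 59 and 85 transcription factors and 24 and 75 ligases, and without M-81E control 2 they had 47 and 91, 22 and 75, and 12 and 36. Without Roma control 1 they had 4 and 11, 3 and 4, and 1 and 4, and without Roma control 2 they had 6 and 8, 3 and 8, and 1 and 2. Beside SORBI_3007G047400, the transcription factor SORBI_3002G225700, annotated to ethylene signalling and vascular development, had values of 0 in Roma control 1 and 2 and had 51.7 and 34.2 FPKM in M-81E. The kinase SORBI_3008G099600, annotated to defense, had 0.268 and 0.099 FPKM in Roma against 7.06 and 13.4 FPKM in M-81E (-3.51 ± 0.31, limma adjusted p = 0.00371).

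Jasmonate genes, which serve defense and growth restraint, had 2 higher and 13 lower (9.77%) of 133 tested, against 3.64% and 6.28% of all tested genes. On the uncentred scale they had 5 and 8, and the median was 0.12 in place of -0.20. SORBI_3004G219800, a transcription factor annotated to salt, ethylene, auxin and jasmonate, was 1 of the 2 higher genes, at 57.7 and 61.8 FPKM in Roma against 11.6 and 12.1 FPKM in M-81E (1.92 ± 0.22, limma adjusted p = 0.00693). SORBI_3008G107500, a transcription factor, was lower, at 12.4 and 12.9 FPKM against 30.1 and 33.7 FPKM. When M-81E control 1 or 2 was left out, the counts were 6 higher and 18 lower or 3 and 22. Without a Roma control library 1 or 0 members were higher and 2 or 3 lower.

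The list of genes annotated to salt stress was close to balanced before any salt was given. Of 279 tested members 17 (6.09%, against 3.64% of all tested genes) were higher and 21 (7.53%, against 6.28%) lower in Roma. Together these were 13.6% of the list, against 9.93% of all tested genes. The list median of 0.01 became 0.33 without the shift, where the counts were 33 and 13. SORBI_3001G086000 and SORBI_3007G047400 above belong to it. With either M-81E control library left out (1, then 2), the counts were 41 and 40 or 22 and 28, and without either Roma control library 3 and 4. Of 70 tested sodium and potassium transport genes 6 (8.57%, against 3.64% of all tested genes) were higher and 3 (4.29%, against 6.28%) lower. When M-81E control 1 was left out, these were 10 and 12, without M-81E control 2 they were 6 and 4, and without either Roma control library 0 passed. SORBI_3003G184800, annotated to sodium ion transport and calcium, had 17.2 and 16.7 FPKM in Roma against 5.16 and 3.82 FPKM in M-81E (1.40 ± 0.21, limma adjusted p = 0.0159). SORBI_3006G137800, annotated to the hyperosmotic salinity response, had 70.3 and 81.7 FPKM against 19.2 and 18.6 FPKM (1.63 ± 0.26, limma adjusted p = 0.0182). The potassium transporter SORBI_3002G130800 was lower at 15.3 and 16.1 FPKM against 35.5 and 49.5 FPKM, with an adjusted p of 0.0389 by limma and of 0.0594 without the shift.

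Few ribosomal protein genes differed. Of 309 tested members 7 were higher and 5 lower, or 3.88% against 9.93% of all tested genes, while their median stood at 0.32, and 0.64 without the shift. On the uncentred scale 30 were higher and 2 lower, and without M-81E control 1 the centred counts were 74 and 14. Without M-81E control 2 they were 15 and 8, and without Roma control 1 or Roma control 2 there were 0 higher and 1 or 0 lower. The list summed to 24192 and 23422 FPKM in Roma against 15998 and 10929 FPKM in M-81E, whose 2 libraries thus differed widely. Water channels had 2 higher (8.33%, against 3.64% of all tested genes) and 1 lower (4.17%, against 6.28%) of 24. Their median of 0.68 was -0.10 against the first M-81E control library alone and 1.12 against the second. Cell wall loosening genes had 6 higher (8.57%) and 2 lower (2.86%) of 70, with a median of 0.59, or 0.22 and 1.11 against the single M-81E control libraries. Fitted without M-81E control 1, the water channels had 11 higher and 2 lower and the loosening genes 22 and 2, without M-81E control 2 they had 2 and 5 and 4 and 4, and without either Roma control library 0 members of either list passed.

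**Figure D3:**
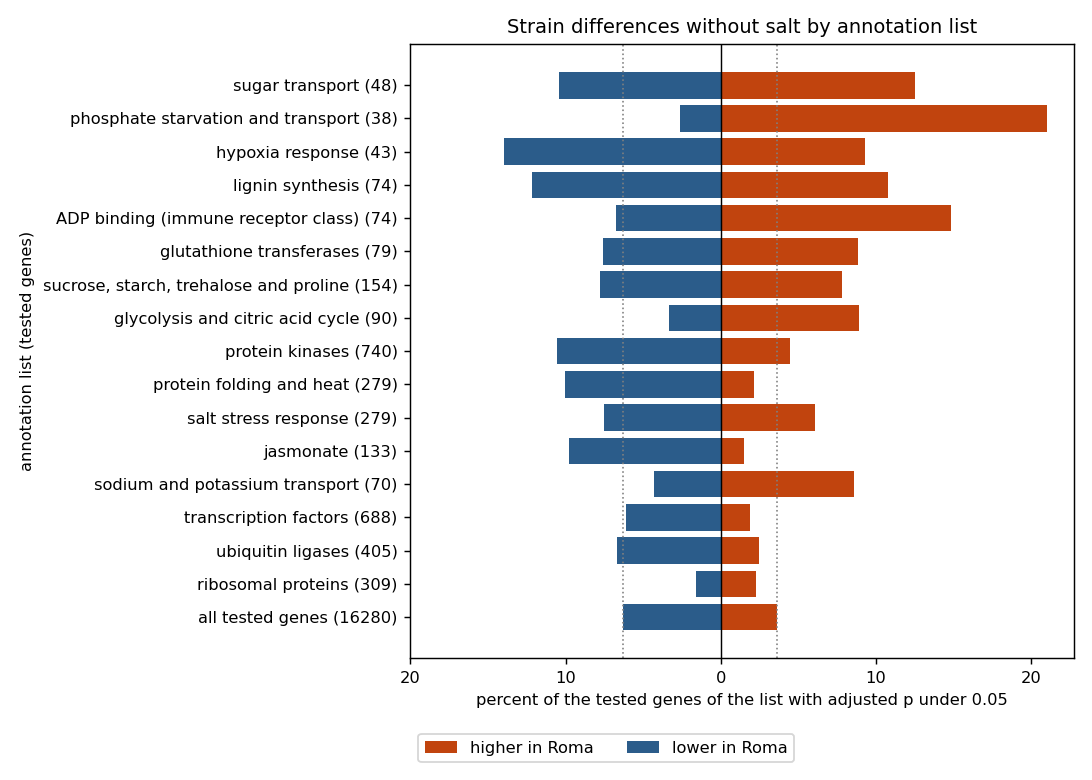
Percent of the tested genes of 16 annotation lists, and of all tested genes, with an adjusted p under 0.05, right of 0 where higher in Roma and left of 0 where lower in Roma; the number of tested genes is in brackets and the dotted lines mark all tested genes. Phosphate genes have 8 higher of 38, and protein folding and heat genes 28 lower of 279.

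The table held 2 genes annotated to mRNA methylation, and neither passed the threshold. SORBI_3004G033100, which also carries an annotation to the regulation of splicing, had 9.85 and 9.25 FPKM in Roma against 6.83 and 7.43 FPKM in M-81E (0.06 ± 0.17, limma adjusted p = 0.871). SORBI_3004G285000, annotated as an S-adenosylmethionine-dependent methyltransferase, had 6.54 and 9.20 FPKM against 11.6 and 12.2 FPKM (-0.88 ± 0.21, limma adjusted p = 0.0559). With 2 libraries a strain this does not show that the levels were alike. The mRNA of SORBI_3004G033100 held a 3′ UTR peak in both lists, with an authors' fold enrichment of 387 in Roma and 172 in M-81E. SORBI_3004G285000 held a peak in the M-81E list, with a fold of 12.7, and none in the Roma list.

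Some genes were read in one strain and listed at 0 in the other. There were 36 genes at 5 FPKM or more in each Roma control library and 0 in each of M-81E. In the other direction, 26 genes were at 0 in each Roma control library and 5 FPKM or more in each of M-81E. Replicates of 1 strain differed in this way more often, among the 16280 tested genes. In Roma control 231 genes were at 0 in 1 replicate and at 5 FPKM or more in the other, and in M-81E control 297. SORBI_3003G067300, annotated to nucleosome assembly, had 78.7 and 78.9 FPKM in Roma and values of 0 in M-81E control 1 and 2. SORBI_3003G200501, of the same annotation, had 52.7 and 49.3 FPKM in Roma and was also listed at 0 in M-81E. Both were listed at 0 in the 2 M-81E salt libraries as well. In the other direction SORBI_3009G030100 had 0 in both Roma libraries and 1301 and 804 FPKM in M-81E, and SORBI_3001G538866, a cyclin-dependent kinase inhibitor, had 0 and 0 in Roma against 696 and 799 FPKM in M-81E.

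A value of 0 need not mean that no transcript was present. Of the 36 genes at 0 in M-81E, 17 (47.2%) had an m6A peak in the M-81E control list, which needs fragments of that gene, and 2 of the 26 genes at 0 in Roma (7.69%) had a peak in the Roma control list. SORBI_3003G067300 had a 5′ UTR peak in both lists. SORBI_3004G040900, annotated to translation initiation, had 65.1 and 69.6 FPKM in Roma and 0 in M-81E, and 2 peaks in the M-81E list (limma adjusted p = 0.226 for expression). In 19 of the 36 genes at least 1 M-81E salt library was at 5 FPKM or more, and in 14 both were at 0.

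The strain differences past the threshold without salt mostly had the same sign in the libraries grown under salt. Those are separate samples of the same strains. The share with the same sign over all tested genes was not counted. Over all tested genes the differences without and under salt had a Pearson r of 0.48. Both comparisons used one shared estimate of each gene's spread, so a gene that passed in one passed more easily in the other. The shares that passed are therefore not independent repeats. Of the 593 genes higher in Roma without salt, 540 (91.1%) had the same sign under salt and 271 (45.7%) also passed the threshold. Of the 1023 lower genes, 963 (94.1%) had the same sign and 394 (38.5%) passed. Over all tested genes, 459 were higher and 606 lower in Roma under salt, or 2.82% and 3.72%. The opposite direction past the threshold was seen in 2 of the higher genes, SORBI_3001G168600 and SORBI_3010G012800, and in 9 of the lower ones. SORBI_3001G086000 stayed low, at 0.214 and 0.628 FPKM in Roma salt against 72.5 and 61.3 FPKM in M-81E salt.

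The change of the strain difference with salt was past the threshold in 30 genes, or 0.184% of those tested (0.135% with a positive and 0.0491% with a negative change), and 25 of the 30 were listed at 0 in at least 1 library. At an unadjusted p under 0.05 there were 1428. Of the 1616 genes that differed without salt, 14 were among the 30. The oxalate decarboxylase SORBI_3004G148100, low in Roma without salt, had 40.1 and 58.1 FPKM in Roma salt against 5.81 and 5.41 FPKM in M-81E salt, a difference of 2.60 ± 0.33 (limma adjusted p = 0.0119). A second gene of this annotation, SORBI_3007G067608, named after its values were seen, had 0.592 and 0.243 FPKM against 22.3 and 9.07 FPKM without salt and 27.9 and 33.0 FPKM against 0.275 and 0.166 FPKM under salt.

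**Figure D4:**
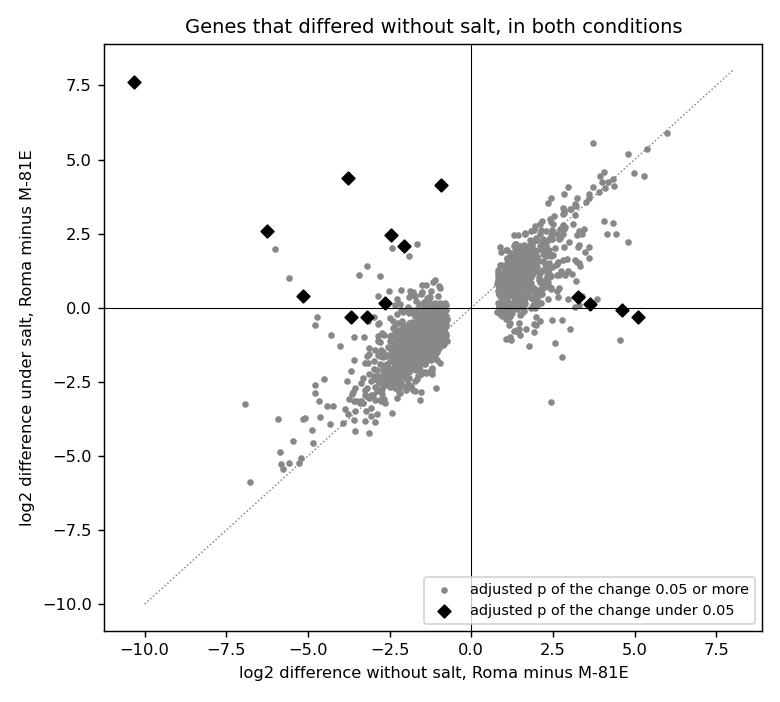
Difference between Roma and M-81E without salt (horizontal) and under salt (vertical), in log2(FPKM + 1), for the 1616 genes that differed without salt; the dotted line marks equal differences. Diamonds are the 14 genes whose difference changed with salt at an adjusted p under 0.05, and the 1 at the far left is SORBI_3009G030100.

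The peak lists were compared by overlap of at least 1 base, since each strain has 1 list and no replicate. Roma control had 5949 peaks on 5221 genes and M-81E control 10219 peaks on 8143 genes. Under salt the order was the other way, with 12080 peaks on 9843 genes in Roma and 10255 on 8432 genes in M-81E. Most Roma peaks had a counterpart: 5312 overlapped an M-81E peak, 89.3% (exact 95% binomial interval 88.5 to 90.1%). Of the M-81E peaks 5255 overlapped a Roma peak, 51.4% (50.4 to 52.4%). These intervals cover counting error only. By gene, 4752 had a peak in both lists, 469 in Roma only and 3391 in M-81E only, so the shared genes were 91.0% of Roma's and 58.4% of M-81E's. The lists do not say how deep each strain's libraries were, and the part of depth in the difference was not tested.

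The extra M-81E peaks were placed differently along the transcript. Of Roma peaks 80.4% were annotated to the 3′ UTR, 6.79% to the 5′ UTR and 12.8% to other exons, against 71.1%, 10.9% and 18.0% of M-81E peaks. Under salt the 3′ UTR shares were close, at 77.1% in Roma and 77.9% in M-81E. The 4964 peaks found in M-81E and not in Roma were in the 3′ UTR in 59.6%, in the 5′ UTR in 14.4% and in other exons in 26%. The 637 peaks found in Roma and not in M-81E resembled the shared ones, at 80.1%, 8.01% and 11.9%. Read by region, 59.3% of M-81E 3′ UTR peaks, 36.0% of 5′ UTR peaks and 29.8% of other exon peaks had a Roma counterpart, while Roma peaks had an M-81E counterpart in 89.3%, 87.4% and 90.0%.

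The median distance from the centre of a peak to the 3′ end of its gene was 258.5 bases in Roma and 300.5 bases in M-81E. Of the peaks in M-81E only, 52.5% lay within 500 bases of the 3′ end, against 68.6% of the M-81E peaks that overlapped a Roma peak. Peaks in 1 list only were weaker within their own list. The authors' fold enrichment had a median of 8.75 for M-81E-only peaks against 18.4 for the shared M-81E peaks, and 9.80 for Roma-only peaks against 19.5 for the shared Roma peaks. Under salt the peaks in 1 list only were found less often than all peaks of their list. Of the M-81E-only peaks 71.1% overlapped a peak of the Roma salt list and 65.4% one of the M-81E salt list. For all M-81E control peaks these shares were 85.3% and 81.1%. Neither salt list held 18.7% of the M-81E-only peaks. Of the Roma-only peaks 75.4% were in the Roma salt list, 42.2% in the M-81E salt list and 19.9% in neither. For all Roma control peaks the shares in the Roma and M-81E salt lists were 96.2% and 89.8%.

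Fewer genes held a peak in Roma in every range of FPKM. Among genes at 5 to 10 FPKM in the same strain, 23.6% held a peak in Roma and 51.8% in M-81E. At 20 to 50 FPKM the shares were 58.7% and 79.1%, and at 100 FPKM or more 81.1% and 87.4%. Below 1 FPKM they were 1.36% and 3.04%. In the 8142 genes at 5 FPKM or more in both strains, 3926 (48.2%) had a peak in both lists, 211 (2.59%) in Roma only, 1892 (23.2%) in M-81E only and 2113 (26%) in neither. The lists also differed among these genes. The FPKM ranges are on the uncentred scale, where the typical gene was 0.30 log2 higher in Roma. The part of expression level in the difference was not tested.

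**Figure D5:**
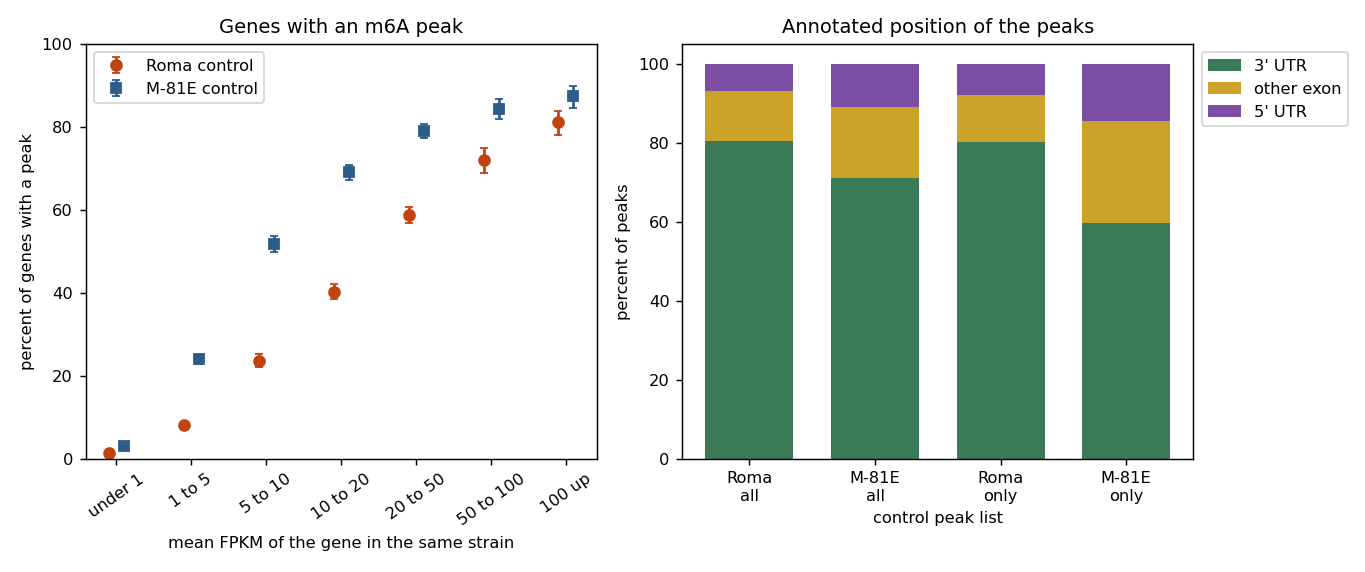
Left, percent of genes with an m6A peak by the mean FPKM of the gene in the same strain, Roma control (circles) left of M-81E control (squares), with exact 95% binomial intervals for counting error. Right, annotated position of all peaks of each control list and of the peaks found in that list only; M-81E-only peaks have the smallest 3′ UTR share, 59.6%.

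The genes with a peak in one list leaned to that strain in expression. Among 3139 tested genes with a peak in M-81E only, 28 (0.892%) were higher in Roma and 319 (10.2%) lower. Among 424 with a peak in Roma only, 49 (11.6%) were higher and 6 (1.42%) lower. Genes with peaks in both lists were higher in 91 (1.97%) and lower in 269 (5.82%) of 4625, and genes with none in 425 (5.25%) and 429 (5.30%) of 8092. At 5 FPKM or more in both strains, 14 (0.740%) of 1892 M-81E-only genes were higher in Roma and 183 (9.67%) lower. Of 211 Roma-only genes 16 (7.58%) were higher and 4 (1.90%) lower, which are few genes. In the same range, genes with peaks in both lists were higher in 1.55% and lower in 6.34%. Genes with none were higher in 2.37% and lower in 5.30%, so lower calls outnumbered higher ones there too. The FPKM values and the peaks come from the same sets of samples, so they are not independent measures.

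Of the folding genes lower in Roma, SORBI_3001G129000 had 0 peaks in the Roma control list and 3 in the M-81E control list. SORBI_3007G197200 had peaks in both lists, 1 and 4. Of the 279 tested folding and heat genes 43.7% had a Roma control peak and 62.0% an M-81E control peak. Over all tested genes 31.0% had a Roma control peak and 47.7% an M-81E control peak. Proteasome genes, whose products break down marked proteins, were at 78.6% and 87.5%, ribosomal protein genes at 57.6% and 66.3%, protein kinases at 24.6% and 44.5%, transcription factors at 27.0% and 48.6%, and ADP-binding genes at 2.70% and 9.46%. Every one of these lists had the smaller share in Roma.

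On genes of at least 5 FPKM, the 5 peaks of highest fold enrichment in each control list lay in 5′ UTRs and were common to both strains. The highest fold of the whole M-81E control list, 11300, fell outside this rule. SORBI_3009G046600, annotated to lipid particle organization and the response to water deprivation, had a 5′ UTR peak on chromosome 9 at 4418678 to 4419073 in Roma, the highest of its list among genes of at least 5 FPKM at a fold of 5570, and its M-81E peak had a fold of 2350. In M-81E the highest by the same rule was in SORBI_3002G335300, at a fold of 7890, which also ranked second in Roma at 4130. SORBI_3003G037000 and SORBI_3003G113800, both serine/threonine kinases, were among the 5 highest of both lists. These folds are the authors' and rank peaks within a list only.

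Among peaks without a counterpart on genes of at least 5 FPKM in both strains, the Roma list was led by a 5′ UTR peak in SORBI_3003G239900, an NADPH- and magnesium-binding enzyme at 312 and 308 FPKM in Roma against 199 and 243 FPKM in M-81E, with a fold of 171. Next came a 3′ UTR peak in SORBI_3007G146600, annotated to the Golgi transport complex, with a fold of 158, and a 3′ UTR peak in the chitinase SORBI_3003G223300, with a fold of 77.0. The M-81E list was led by the lipase SORBI_3002G194000, whose exon peak had a fold of 982 at 6.26 and 7.19 FPKM in Roma against 23.0 and 37.0 FPKM in M-81E. It was followed by a 5′ UTR peak in SORBI_3002G400000, annotated to cellular responses to salt and water deprivation, with a fold of 892 at 67.9 and 73.0 FPKM in Roma against 103 and 179 FPKM in M-81E. SORBI_3003G215800, a transport ATPase, had a 5′ UTR peak of fold 865. All 3 M-81E peaks were in both salt lists too, while the SORBI_3003G239900 and SORBI_3007G146600 peaks were in the Roma salt list and not in the M-81E salt list.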

How the data were processed

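Read depth is not known, so no interval for FPKM is given. The authors' deposited tables were used as they stood. Expression values were FPKM per gene in 8 columns, and each peak list gave a ratio, the authors' fold enrichment per peak, beside a score for its p and false discovery rate, per the file headers. HISAT2, StringTie, cutadapt, FastQC, ChIPseeker and edgeR appear in the submitters' processing notes, with no role or version. For the build, annotation, peak caller and any pooling of replicates the sources hold nothing, so these are unknown here.

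FPKM values were tested with limma 3.58.1 in R 4.3.3 on log2(FPKM + 1), for 16280 genes with a mean of at least 1 FPKM. Libraries were centred on a common median, the 4 groups of strain and condition were fitted together (4 residual degrees of freedom, variance trend), and p-values were adjusted by Benjamini-Hochberg over all tested genes. The test was tried on simulated data. Genes were named by fixed rules: the 12 largest differences each way among annotated genes of at least 5 FPKM with no 0, up to 4 members per list, up to 5 genes at 0 in 1 strain each way, the 5 peaks of highest fold, and the m6A genes. The rule for the 12 also asked for no overlap between the strains. Other list members, and the chromosome 5 neighbours, were named as examples after their values were seen. Other scalings, pseudocounts, filters, a replicate block and leaving out each library were tried. The 43 gene lists are patterns in the deposited GO text; the ADP-binding pattern was corrected after values were seen, since it had also taken in NADP binding. The members and lists were chosen with earlier results of these data known. Gene identifiers are as deposited, and 0 of 29033 matched the RefSeq table. Peaks were compared by overlap with no test, and no sequence is shown.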

Additional observations from a re-analysis of the deposited data

Results flagged for a closer look

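In 5 named genes the difference between Roma and M-81E without salt was not the one under salt, by a test of the change itself (limma, adjusted over all 16280 genes). They carried an adjusted p under 0.05 for that change, given here as salt minus control of the log2 difference, Roma minus M-81E. SORBI_3004G148100, the oxalate decarboxylase, changed by 8.86 (adjusted p = 0.00336), with a difference of 2.60 under salt, against -6.26 without it, and every library was above 0. SORBI_3009G030100, with no annotated function, changed by 17.92 (adjusted p = 6.94e-05), with 7.60 under salt and -10.32 without it. It was listed at 0 in Roma control and in M-81E salt, in both libraries of each, while it had peaks in every list.

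SORBI_3004G305600, annotated to salt stress and abscisic acid, changed by -5.41 (adjusted p = 0.00308), with -0.30 under salt and 5.12 without it. It had 39.7 and 45.0 FPKM in Roma control and was listed at 0 in the other 6 libraries. SORBI_3004G216400, a GTPase activator, changed by -2.90 (adjusted p = 0.0256), with 0.37 and 3.27, and SORBI_3006G081800, annotated to DNA binding, by -3.49 (adjusted p = 0.028), with 0.13 and 3.63. Both were listed at 0 in the 2 M-81E control libraries and above 5 FPKM in both M-81E salt libraries. Of the 30 genes past this threshold in the whole table, 25 were listed at 0 in some library.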

How the results depend on the processing

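No gene that differed without salt was called in the opposite direction under any alternative, but the counts moved widely. The count of 1616 was 968 with a mean of at least 5 FPKM, 8083 with no filter and 243 in a fit of the 2 control groups alone, and leaving out 1 library gave 248 to 4262. Of 141 named genes that passed, 99 lost the call in the 2 groups alone, and 9 to 96 with a library left out. The share higher in Roma, 36.7%, was 68.9% without centring, 15% with no filter, 46.1% in the 2 groups alone and 45.9% after quantile scaling, with 37.0 to 43.1% over single libraries left out. Under salt 1065 genes became 542 with at least 5 FPKM and 6469 with no filter, and 214 to 3014 with a library left out. The change with salt, 30 genes, became 4 with at least 5 FPKM, 8 with the replicate block and 2 among genes above 0 in all 8 libraries, and 9 to 1061 with a library left out. Where a group is left with 1 library, it is assumed to vary like the others. The cause was not tested. Replicate numbers did not pair the samples (r of deviations from -0.04 to 0.04), and the replicate block gave 1208 genes without salt. Scaling FPKM to a common median, chosen after seeing the data like the restriction to genes above 0, gave 1647. Of Roma peaks 87.4% had an M-81E counterpart at a fold of at least 4 and 88.3% where at least 50% of the shorter peak had to overlap; of M-81E peaks 53.6% had a Roma counterpart at that fold. The unknown read depth limits all of these.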
